A study of Mus musculus with 23 samples.

Results

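NRF2, the transcription factor encoded by Nfe2l2, induces a battery of genes that keep glutathione and thioredoxin reduced, and 10 of its textbook targets were followed here in diabetic mouse bone. The genes were Gclm, Gclc, Slc7a11, Gsr, Txnrd1, Srxn1, Nqo1, Hmox1, Osgin1, and G6pdx. They were taken by gene symbol from the 17644 genes of the table of TPM, a level scaled to transcript length and library size, and matched by gene identifier to the 67228 entries of the count table. All 10 were found in both tables, and all 10 were among the 14364 genes that passed the filter on low counts (at least 10 counts in at least 5 mice) and were tested.

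RNA-Seq was performed on femur and tibia of female C57BL6/N mice at 11 weeks of age, after the marrow had been spun out of the bones, with 1 library per mouse. Type 1 diabetes (T1D) was induced at 8 weeks of age with streptozotocin, a toxin of pancreatic beta cells, at 100 mg/kg per injection, and lasted 3 weeks. Control mice received saline. Wild-type (WT) mice were compared with mice that carried a global knockout (KO) of Sarm1, an NAD-cleaving enzyme best known from degenerating axons, so the deletion was not limited to bone cells. Of the 23 mice, 5 were WT Control, and the WT T1D, KO Control, and KO T1D groups held 6 each. Total counts ranged from 16938101 to 20135592 per mouse.

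Under resting conditions the adaptor KEAP1 holds NRF2 in the cytoplasm and directs it to degradation through a CUL3 ubiquitin ligase. Electrophiles and oxidants modify KEAP1, NRF2 accumulates, pairs with a small MAF protein, and binds antioxidant response elements near its targets, where the repressor BACH1 can compete for the same element. In bone, this pathway is known for limiting the oxidative signals that promote osteoclast formation, and in red cell precursors the same genes protect against heme and iron.

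The antioxidant response element is read by its core letters TGACNNNGC. Promoter windows from 250 bases before to 50 bases after the annotated start were available from RefSeq (GRCm38.p6) for 7 of the 10 genes, namely Srxn1, Slc7a11, Gclm, Nqo1, Osgin1, Txnrd1, and G6pdx, and not for Gclc, Hmox1, or Gsr. The start used is that of the listed promoter, which need not be the outer end of the gene. The windows of Slc7a11 (chr3:50443564-50443863) and Osgin1 (chr8:119436897-119437196) lay inside those genes (chr3:50364936-50499087 and chr8:119425882-119446257). For Gclm the start used also lay inside the gene. So did the Txnrd1 promoter printed below (chr10:82858956-82859255, in the gene at chr10:82833951-82897724). The Txnrd1 promoter at the outer end of the gene (chr10:82833701-82834000) did not hold the core. The core was searched on both strands. It occurred in 4 of these 7 genes, whereas 14% of the 27025 genes in the table held it in at least 1 promoter, and in each of the 4 it lay on the strand opposite to the gene. The narrower form TGACTCAGC, which is contained in the core, was found in 0 of the 7 genes and in 0.503% of all genes. A match of these letters is a description of the window and not evidence of binding, and the absence of a match concerns only these bases. The 4 windows are printed 5′ to 3′ along the gene's own strand so that the letters can be seen in place, with the core in capitals.
Gclm (chr3:122245393-122245461, + strand, core starting at position -134 from the start): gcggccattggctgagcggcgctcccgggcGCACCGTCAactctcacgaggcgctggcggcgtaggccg
Txnrd1 (chr10:82859084-82859152, + strand, core starting at position -92 from the start of 1 of 3 listed promoters): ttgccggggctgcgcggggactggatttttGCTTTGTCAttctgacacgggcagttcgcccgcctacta
G6pdx (chrX:74428899-74428967, - strand, core starting at position -57 from the start): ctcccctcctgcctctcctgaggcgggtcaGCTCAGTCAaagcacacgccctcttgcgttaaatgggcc
Srxn1 (chr2:152105542-152105570, + strand, core starting at position 28 after the start): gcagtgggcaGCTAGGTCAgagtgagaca
Of the 4 genes that held the core, Gclm was the only one past the edgeR test in any comparison of the 4 groups below. It passed for T1D in WT (all genes, 2.33%), close to the threshold. A link between the core and the response to T1D was not tested.

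Some features of the libraries touched the results. Sarm1 RNA was at 1.17 ± 0.403 CPM (counts scaled to the normalised library size, mean ± SD) in WT Control and 0.687 ± 0.293 in WT T1D, and at 0.799 ± 0.503 and 1.18 ± 0.259 in KO Control and KO T1D. With 5 to 32 counts per mouse, near the limit of measurement, the RNA level did not separate the genotypes. On the log2 scale KO minus WT was -0.55 in Control and 0.78 in T1D mice. The latter runs opposite to a deletion and had an unadjusted edgeR p under 0.05 (all genes, 17.1%), without passing after adjustment. By qPCR the authors reported lower Sarm1 in KO than in WT bone. Counts this low cannot test the deletion, and KO denotes the label. WT T1D mice A3905 and A3906 stood apart, with summed CPM over 11 osteoblast markers of 8621 and 6873 against 61200 to 119100 in WT Control and 62990 to 85920 in the other 4 WT T1D mice, and results are given with and without them. Of the WT mice, 1 Control and 3 T1D mice had identifiers beginning with A17 and all other mice had identifiers from A36 to A39, and values within the latter are given beside the results. The A17 mice were all WT with 1 Control, so no comparison could be made within them. The only WT T1D mice with A36 to A39 identifiers were A3905, A3906, and A3909. Values within A36 to A39 thus rest more heavily on A3905 and A3906 and are no check apart from these mice. The A36 to A39 identifiers also fell into runs of near-consecutive numbers. The A17 mice, whose numbers were not all near-consecutive, were set as 1 further run. What a run stands for is not given in the labels. Each KO run of 5 or 6 mice held Control and T1D mice, as did both larger WT runs, and the remaining run was a pair of Control mice. WT T1D and KO T1D mice shared no run, so genotype and run cannot be told apart between the diabetic groups. Osteoblast markers were abundant in all the other libraries, and neutrophil and erythroid markers were also present in every mouse, at summed CPM of 21280 to 42720 over 10 genes and 4423 to 12400 over 13 genes.

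Compared per transcript length, the 10 genes spanned a wide range of levels in bone. Over the 23 mice, Hmox1 averaged 222 ± 41.1 TPM and G6pdx 193 ± 28.4 TPM (mean ± SD). Gsr followed at 86.4 ± 11.2, Gclm at 61.4 ± 6.24, Gclc at 43.8 ± 4.18, and Txnrd1 at 24.2 ± 2.78 TPM. Osgin1 averaged 13.1 ± 1.60, Srxn1 9.43 ± 1.29, Nqo1 6.90 ± 0.971, and Slc7a11 0.417 ± 0.214 TPM. The order was stable from mouse to mouse. Neighbours kept it in at least 21 of 23 mice, except Hmox1 and G6pdx, whose order held in 17 of 23. Slc7a11 was near the limit of measurement, with 23 to 108 counts per mouse and a coefficient of variation of 51.5%, against 9.55% to 18.6% for the other 9 genes.

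The comparison of T1D with Control in WT bone asked how diabetes altered this gene set. Gclm RNA, the modifier subunit of the ligase that makes the first bond of glutathione, rose, and the other 9 genes did not pass the test. Expression of Gclc, the catalytic subunit of the same enzyme, was higher by nearly as much without passing. The remaining 8 genes differed less, and the values for Txnrd1 and Srxn1 in the diabetic mice were close to those of controls. The test was edgeR's quasi-likelihood test with Benjamini-Hochberg adjustment over all 14364 genes, and 1 of 10 genes passed an adjusted p under 0.05, compared with 2.33% of all genes tested. At an unadjusted p under 0.05, 2 of 10 passed, against 22.2% of all genes, so the share of the set that passed was not set apart from the background. In 0 of the 10 genes did the WT groups separate without overlap, against 2.19% of all genes. All 10 log2 fold changes were positive, with a median of 0.17, against 48.1% positive and a median of -0.01 over all genes tested, but on the TPM scale described below 2 of 10 were positive, against 11.7% of all genes.

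**Figure D1:**
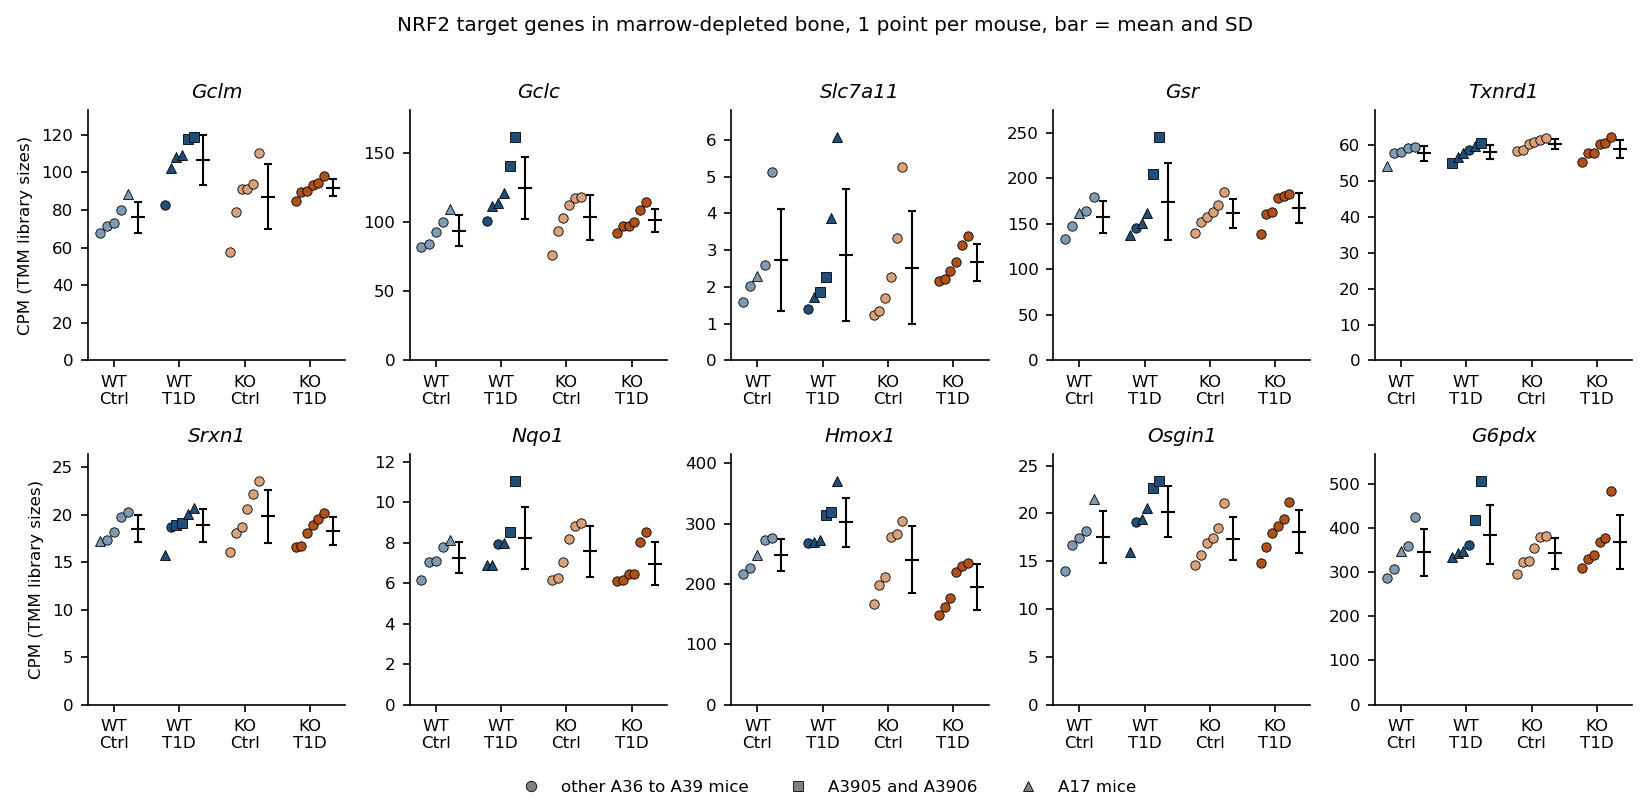
CPM of the 10 genes (y axes, from 0) in each mouse of the 4 groups (x axes). Each point is 1 mouse, triangles are A17 mice, squares are A3905 and A3906, and the bar beside the points is the mean and SD. Gclm in 5 of 6 WT T1D mice lay above all WT Control mice, Hmox1 in KO T1D lay below all WT T1D mice, and Txnrd1 lay between 54.2 and 62.2 CPM in every mouse.

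Gclm (gene 14630, chr3:122245487-122267215, protein coding) was at 88.7, 71.4, 67.6, 79.8, and 73.0 CPM in the WT Control mice. In WT T1D, the lowest, median, and highest values were 82.7, 108.7, and 119 CPM. In 5 of 6 WT T1D mice it was above every WT Control mouse, and the remaining mouse, A3909, fell within the control range. The same count, 5 of 6, held for TPM. KO Control mice ranged from 57.9 to 110.1 CPM with a median of 91.0, and KO T1D mice from 85.0 to 98.0 with a median of 91.8, so the KO groups overlapped fully. Between the WT groups the log2 fold change was 0.49 (SE 0.12, 95% interval 0.24 to 0.73, edgeR adjusted p = 0.0440). This call was close to the threshold. It was lost in 14 of the 23 fits that left out 1 mouse, where the log2 fold change ranged from 0.45 to 0.55 and the adjusted p reached 0.121. Without A3905 and A3906 together the log2 fold change was 0.40 (adjusted p = 0.302, with 0 of all genes passing), and 3 of the 4 WT T1D mice left were still above all controls. These were the A17 mice A1764, A1787, and A1758, at 102.4, 108, and 109.5 CPM. The 1 A17 control, A1757, was the highest control at 88.7 CPM, so no comparison within A17 mice could be made. Within the A36 to A39 mice, the WT T1D mice were A3905, A3906, and A3909. There the log2 fold change was 0.56 (adjusted p = 0.0244, with 2211 of 14278 genes passing). With identifier runs as a block it was 0.44 (adjusted p = 0.0359). By DESeq2 on all 23 mice Gclm passed, at 0.49 (adjusted p = 0.00657, with 1002 of 14364 genes passing).

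Gclc (gene 14629, chr9:77754535-77794489) was at 109.4, 84.5, 100.2, 92.6, and 82.2 CPM in WT Control. WT T1D mice had values of 101.0 at the lowest, 117.5 at the median, and 162 at the highest. The 2 highest, 140.5 and 162 CPM, were those of A3905 and A3906, and 5 of 6 WT T1D mice were above all controls. KO Control ranged from 76.5 to 119 CPM with a median of 107.5 and KO T1D from 92.3 to 114.5 with a median of 98.7. The log2 fold change in WT was 0.41 (SE 0.12, 95% interval 0.17 to 0.66, edgeR adjusted p = 0.0558). It passed in 5 of the 23 fits that left out 1 mouse, with log2 fold changes of 0.34 to 0.48. By DESeq2 on all 23 mice it passed, at 0.42 (adjusted p = 0.0202, with 1002 of 14364 genes passing). Gclc passed within the A36 to A39 mice, with a log2 fold change of 0.59 (adjusted p = 0.0175, with 2211 of 14278 genes passing). It fell to 0.25 without A3905 and A3906 (adjusted p = 0.397).

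The partner genes of glutathione supply and recycling gave no call. Slc7a11, the exchanger that imports cystine for glutathione synthesis, was at 2.30, 2.03, 5.14, 2.59, and 1.60 CPM in WT Control, and at 1.39 to 6.08 CPM in WT T1D with a median of 2.06. Its log2 fold change of 0.07 had a 95% interval of -0.75 to 0.88, so a change of up to that size in either direction could not be told from none. Single mice in 3 of the groups lay above 5 CPM. It turned to -0.61 within the A36 to A39 mice. Gsr, glutathione reductase, which returns oxidised glutathione to its reduced form, was at 132.9 to 179.8 CPM in WT Control and 137.5 to 245.1 CPM in WT T1D, with medians of 161.9 and 156.1. Its log2 fold change was 0.15 (95% interval -0.11 to 0.40). The 2 WT T1D mice above the control range were A3905 and A3906, at 245.1 and 204.8 CPM, and without them the log2 fold change was -0.08 (adjusted p = 0.806).

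**Figure D2:**
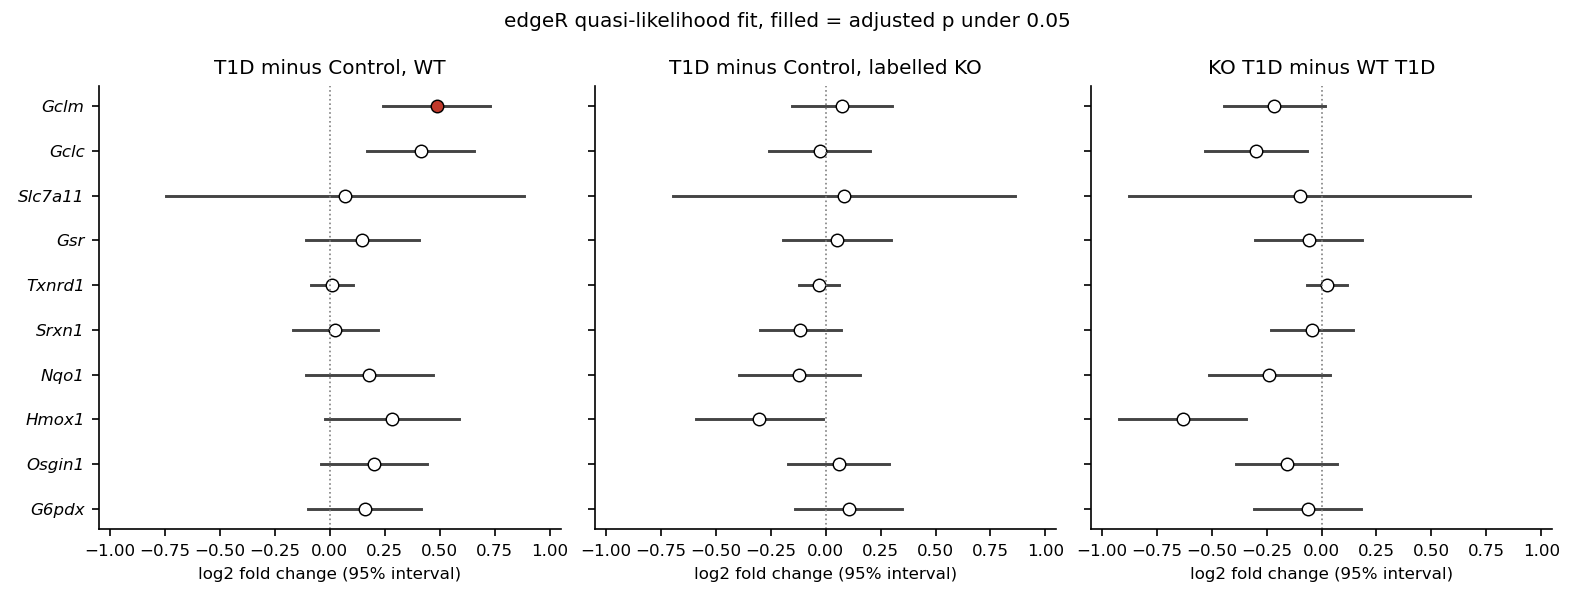
Log2 fold changes (x axes) of the 10 genes (y axis) from the edgeR fit, with lines for the 95% interval, for T1D in WT, T1D in mice labelled KO, and KO T1D against WT T1D. The filled point, Gclm in WT at 0.49, is the 1 value with an adjusted p under 0.05, and the intervals of Slc7a11 are the widest.

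In the thioredoxin arm, Txnrd1, the cytosolic thioredoxin reductase, was the least variable gene of the set on the CPM scale. It was at 54.2 to 59.4 CPM in WT Control, 55.1 to 60.5 in WT T1D, 58.4 to 62.1 in KO Control, and 55.2 to 62.2 in KO T1D. The log2 fold change in WT was 0.008 with a 95% interval of -0.09 to 0.10, so a rise as large as that fitted for Gclm lay outside the interval. Srxn1, sulfiredoxin, which repairs overoxidised peroxiredoxins, was at 17.2 to 20.2 CPM in WT Control and 15.7 to 20.7 CPM in WT T1D. Its log2 fold change was 0.03 (95% interval -0.17 to 0.22).

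Nqo1, a quinone reductase often used as the readout of NRF2, was at 8.16, 7.08, 7.80, 7.10, and 6.17 CPM in WT Control and at 6.88 to 11.1 CPM in WT T1D with a median of 7.97. The highest WT T1D mouse, A3906, stood above the rest. The log2 fold change was 0.18 (95% interval -0.11 to 0.47, adjusted p = 0.469) and was 0.03 without A3905 and A3906. Hmox1, heme oxygenase 1, which breaks heme down to biliverdin, iron, and carbon monoxide, was at 248.0, 276.4, 227.1, 217.1, and 272.6 CPM in WT Control and at 267.3 to 370.3 CPM in WT T1D with a median of 292.9. The groups overlapped, with 3 of 6 WT T1D mice above all controls, and the log2 fold change was 0.28 (95% interval -0.02 to 0.59, adjusted p = 0.260).

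Osgin1, a growth inhibitor induced by oxidative stress, was at 14.01 to 21.5 CPM in WT Control and 16.0 to 23.4 CPM in WT T1D. The log2 fold change was 0.20 (95% interval -0.04 to 0.44, adjusted p = 0.318), and it ranged from 0.13 to 0.28 in the fits that left out 1 mouse. Within the A36 to A39 mice it was 0.40 and passed (adjusted p = 0.0464, with 2211 of 14278 genes passing). The WT T1D mice of that fit were A3905, A3906, and A3909. Without A3905 and A3906, in a fit that passed 0 of all genes, Osgin1 did not pass. G6pdx, the first enzyme of the pentose phosphate pathway and a source of the NADPH used by both reductases, was at 286.1 to 424.5 CPM in WT Control and 335.1 to 506.6 CPM in WT T1D. The log2 fold change was 0.16 (95% interval -0.10 to 0.41, adjusted p = 0.467) and was 0.005 without A3905 and A3906, which held the highest values of their group for G6pdx and Osgin1.

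The sign of most of these differences depended on the scale. On log2(TPM + 1) with limma, the median over all genes was itself shifted by -0.24 in WT T1D, and differences were read against that shift. On that scale Gclm was at 0.19 (adjusted p = 0.0880) and Gclc at 0.10, both positive and above the median gene, whereas the other 8 genes turned negative. Txnrd1 was called lower in WT T1D, at -0.27 (adjusted p = 0.0187), and Srxn1 was at -0.24, values close to the shift of the median gene. Hmox1 was at -0.01, Osgin1 and Slc7a11 at -0.08, Nqo1 at -0.11, G6pdx at -0.13, and Gsr at -0.16, all between the median gene and 0. A ratio of 2 counts within a mouse does not depend on either scaling. The log2 ratio of Gclm to Txnrd1 counts, a pair chosen after the values were seen, averaged 0.39 ± 0.20 in WT Control and 0.87 ± 0.20 in WT T1D (mean ± SD), and 5 of 6 WT T1D mice exceeded all controls. The ratio was 0.51 ± 0.31 in KO Control and 0.64 ± 0.09 in KO T1D. The log2 ratio of Gclc to Txnrd1 averaged 0.69 ± 0.20 in WT Control and 1.09 ± 0.27 in WT T1D, and that of Hmox1 to Txnrd1 2.10 ± 0.18 and 2.37 ± 0.18, and for each of these 3 of 6 WT T1D mice exceeded all controls. The log2 ratio of Gclm to Gclc averaged -0.30 ± 0.16 and -0.22 ± 0.14 in the Control and T1D mice of the WT, and -0.26 ± 0.12 and -0.14 ± 0.12 in those of the KO, and single mice ranged from -0.57 to 0.03.

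**Figure D3:**
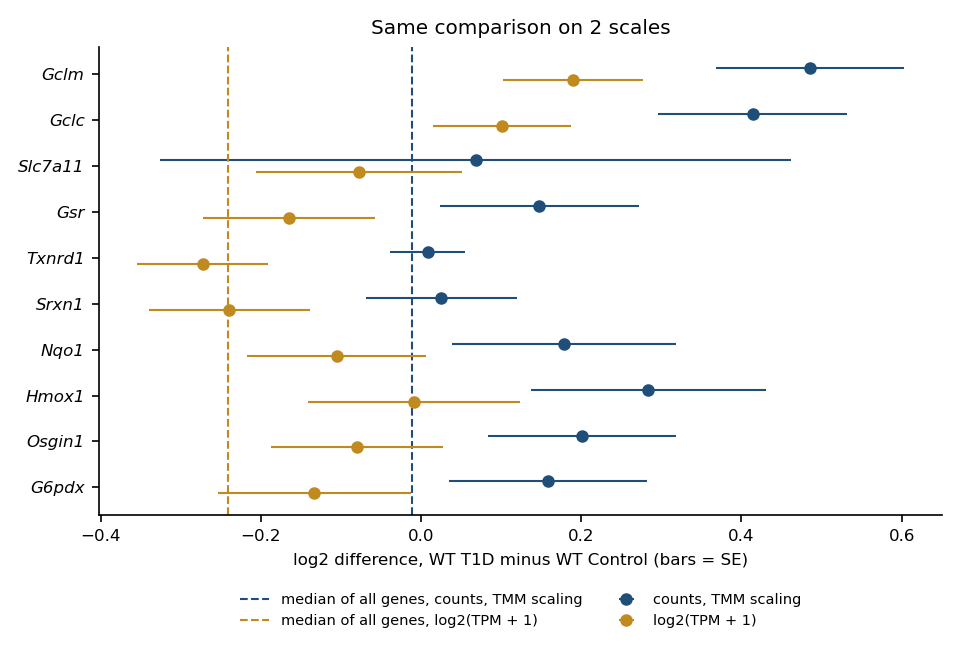
Log2 difference between WT T1D and WT Control (x axis, bars are SE) for the 10 genes (y axis) from normalised counts and from log2(TPM + 1), with dashed lines at the median of all genes on each scale, -0.01 and -0.24. Gclm and Gclc are positive on both scales, and the other 8 genes are positive on the first and negative on the second.

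In mice labelled KO, no gene of the set was called with T1D. The edgeR test passed 0 of 10 genes at an adjusted p under 0.05 (all genes, 0%), DESeq2 likewise passed 0 (all genes, 0 of 14364), and at an unadjusted p under 0.05 edgeR passed 1 of 10 (all genes, 3.15%). That gene was Hmox1, at 166.8 to 304.0 CPM with a median of 245.1 in KO Control and at 148.0 to 234.2 CPM with a median of 198.1 in KO T1D. Its log2 fold change was -0.30 (95% interval -0.59 to -0.01, edgeR adjusted p = 1), or -0.29 (SE 0.09, adjusted p = 0.999) with identifier runs as a block, an alternative chosen after the data were seen. In the run A3670 to A3676, Hmox1 was at 278.0, 304.0, and 282.2 CPM in Control and 220.2, 234.2, and 229.9 in T1D mice, and in the run A3679 to A3683 at 166.8 and 212.2 in Control and 162.0, 176.0, and 148.0 in T1D mice. The runs differed, and the T1D mice were all below the Control mice within the first and overlapped them in the second. Over both, 2 of 6 KO T1D mice were below all KO Control mice. Gclm had a log2 fold change of 0.07 (95% interval -0.15 to 0.30) and Gclc of -0.03 (95% interval -0.26 to 0.20). The Gclm interval in KO overlapped that in WT, 0.24 to 0.73, and the difference between genotypes is tested as an interaction below. The other 7 genes lay between -0.12 for Nqo1 and 0.11 for G6pdx, with Srxn1 at -0.12, Txnrd1 at -0.03, Gsr at 0.05, Osgin1 at 0.06, and Slc7a11 at 0.08. Of the 10 genes, 5 were positive and the median was 0.01, against 49.4% positive over all genes.

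The difference between genotypes in the response to T1D was tested directly as an interaction. It passed for 0 of 10 genes by edgeR (all genes, 0%) and for 0 by DESeq2 (all genes, 0 of 14364). At an unadjusted p under 0.05, 3 of 10 passed, against 10.2% of all genes. These were Hmox1, with an interaction of -0.59 on the log2 scale (SE 0.20), Gclc at -0.44 (SE 0.16), and Gclm at -0.41 (SE 0.16), each with an edgeR adjusted p of 0.479. Of the other 7 genes, Nqo1 was at -0.30 and the rest between -0.14 and 0.01. The effect of T1D was thus not shown to differ between genotypes for any of the 10. Without A3905 and A3906 the values were -0.55, -0.29, and -0.33 and within the A36 to A39 mice -0.60, -0.63, and -0.49. With identifier runs as a block they were -0.61, -0.47, and -0.45 (lowest adjusted p = 0.206). On log2(TPM + 1), with the median of all genes at 0.20, they were -0.33, -0.16, and -0.14, so the sign held for these 3 genes on both scales.

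Averaged over genotypes, T1D passed for 0 of 10 genes by edgeR (all genes, 0.111%) and for 0 by DESeq2 (all genes, 249 of 14364). By edgeR 2 of 10 had an unadjusted p under 0.05 (all genes, 16.4%). Gclm was at 0.28 on the log2 scale (SE 0.08, adjusted p = 0.117) and Gclc at 0.19 (SE 0.08, adjusted p = 0.242). Gclm passed in 1 of 23 fits that left out 1 mouse, the one without A3909 (lowest adjusted p = 0.0453). The other 8 genes lay between -0.05 for Srxn1 and 0.13 for G6pdx and Osgin1, with Hmox1 at -0.009 and Gsr at 0.10.

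Without diabetes, the genotypes were compared in the Control groups. By edgeR 0 of 10 genes passed (all genes, 0.0278%), by DESeq2 0 (all genes, 4 of 14364), and at an unadjusted edgeR p under 0.05 also 0 (all genes, 4.8%). Gclm had the largest log2 difference among the members, 0.20 higher in KO (95% interval -0.04 to 0.44), with 4 of 6 KO Control mice above and 1 below all WT Control mice. Hmox1 differed by -0.05 (95% interval -0.35 to 0.26), and KO Control mice fell on both sides of the WT range, 3 above and 3 below it. The other 8 genes lay between -0.11 for Slc7a11 and 0.14 for Gclc.

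Between the diabetic groups, Hmox1 had the most negative log2 difference of the 10 genes. In WT T1D it was at 267.3 to 370.3 CPM and in KO T1D at 148.0 to 234.2 CPM, so all 6 KO T1D mice lay below all 6 WT T1D mice (5 of 6 by TPM). Hmox1 was the 1 gene of the 10 whose groups did not overlap, against 0.863% of all genes. The log2 difference was -0.63 (SE 0.14, 95% interval -0.92 to -0.34), and its edgeR adjusted p of 0.0644 missed the threshold, so that 0 of 10 genes passed (all genes, 0.0905%). By DESeq2 it passed (log2 difference -0.64, adjusted p = 0.00391), as it did within the A36 to A39 mice (-0.63, adjusted p = 0.0309) and on log2(TPM + 1), where it was -0.44 (adjusted p = 0.0458) although the median gene was at 0.17. Of all genes, 239 of 14364 passed by DESeq2, 1540 of 14278 within the A36 to A39 mice, and 1166 of 14364 on log2(TPM + 1). Without A3905 and A3906 the Hmox1 difference was -0.60 (adjusted p = 0.345). At an unadjusted p under 0.05, 2 of 10 genes passed, against 17.1% of all genes. The second was Gclc, with a log2 difference of -0.30 (SE 0.11, adjusted p = 0.206), at 101.0 to 162 CPM in WT T1D and 92.3 to 114.5 in KO T1D, and 4 of 6 KO T1D mice were below all WT T1D mice. The other 8 genes lay between -0.24 for Nqo1 and 0.02 for Txnrd1, with Gclm at -0.21 and Osgin1 at -0.16. Of the 10 genes, 9 were lower in KO T1D on the CPM scale and 4 on log2(TPM + 1). This comparison and that of T1D in WT share the WT T1D mice.

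The regulators of the pathway did not pass in WT T1D. Of 10 tested, 0 passed by edgeR (all genes, 2.33%) and 0 by DESeq2 (all genes, 1002 of 14364). An unadjusted p under 0.05 was found for 1 (all genes, 22.2%), and the median log2 fold change was 0.05. Nfe2l2, which encodes NRF2 itself, had a log2 fold change of 0.12 (SE 0.06, adjusted p = 0.229). Its inhibitor Keap1 was at -0.05, and the ligase components Cul3 and Rbx1 were at 0.09 and -0.001. Among the small MAF partners, Mafk had the largest value at 0.31 (SE 0.10, adjusted p = 0.0914), Mafg was at 0.02, and Maff at -0.20. The competitor Bach1 was at 0.09, Sqstm1, whose product sequesters KEAP1, at 0.12, and the related factor Nfe2l1 at -0.11. NRF2 is regulated mostly as a protein, which these RNA measurements do not show. On log2(TPM + 1) the median of these 10 genes was -0.20 and 4 were called lower. On that scale the median gene was at -0.24 and 5154 of 14364 genes were called, with 83 higher.

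A wider list of NRF2 targets gave no call in WT T1D by edgeR (all genes, 2.33%). Of 21 listed genes 20 were tested, and 5 had an unadjusted p under 0.05 (all genes, 22.2%). By DESeq2 Blvrb (0.52) and Slc48a1 (0.30) passed (all genes, 1002 of 14364), and within the A36 to A39 mice Blvrb passed (0.64) (all genes, 2211 of 14278). On log2(TPM + 1) 6 were called lower (all genes called, 5154 of 14364) and the median was -0.21, on the scale where the median gene was at -0.24. In the edgeR fit the median log2 fold change was 0.07, with 12 higher and 8 lower. The largest differences were for Aox1, aldehyde oxidase 1 (-0.54, adjusted p = 0.284), Pir, pirin (0.54, adjusted p = 0.148), and Me1, the malic enzyme that generates cytosolic NADPH (-0.53, adjusted p = 0.232). Between KO T1D and WT T1D, 17 of the 20 were lower and 3 higher (all genes, 51.3% higher), with a median of -0.09. By edgeR 0 passed (all genes, 0.0905%). Pir passed by DESeq2 (-0.80, adjusted p = 0.0237; all genes, 239 of 14364) and within the A36 to A39 mice (-0.90, adjusted p = 0.0159, all genes, 1540 of 14278).

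Other genes of glutathione handling included 2 that rose with T1D in WT bone, of 10 tested among 12 listed (all genes, 2.33%), and 4 of the 10 had an unadjusted p under 0.05 (all genes, 22.2%). Slc3a2, the heavy chain that carries Slc7a11 and several other amino acid exchangers to the membrane, was at 112.4, 94.6, 100.4, 95.6, and 96.3 CPM in WT Control and at 102.6 to 163 CPM in WT T1D with a median of 127.4. Of 6 WT T1D mice, 5 exceeded all controls, and the log2 fold change was 0.38 (SE 0.10, edgeR adjusted p = 0.0451). Chac2, a cyclotransferase that degrades glutathione, was at 12.2, 9.10, 10.8, 11.1, and 8.32 CPM in WT Control and at 12.4 to 16.2 CPM in WT T1D, with a log2 fold change of 0.49 (SE 0.13, adjusted p = 0.0499). By edgeR on all 23 mice neither was called in another comparison. Between KO T1D and WT T1D, Slc3a2 was lower by DESeq2 (-0.36, adjusted p = 0.0267) and within the A36 to A39 mice (-0.43, adjusted p = 0.0219). All genes called in these fits were 239 of 14364 and 1540 of 14278. In KO the T1D log2 fold changes were -0.04 for Slc3a2 and 0.08 for Chac2. The interaction was -0.42 for Slc3a2 and -0.41 for Chac2, with an edgeR adjusted p of 0.479 for both. The calls were lost in 16 and 18 of the 23 fits that left out 1 mouse, without A3905 and A3906 (log2 fold changes 0.24 and 0.40), without the filter on low counts (adjusted p = 0.0547 and 0.0611), and on log2(TPM + 1) (0.09 and 0.19). Within the A36 to A39 mice both passed (0.51 and 0.61) (all genes, 2211 of 14278). Targets of another stress factor were examined because Slc7a11 and Slc3a2 are also induced by ATF4. Of 12 ATF4 targets, 0 passed by edgeR (all genes, 2.33%) and 1 by DESeq2 (all genes, 1002 of 14364). An unadjusted p under 0.05 was found for 6 (all genes, 22.2%), and the median was 0.22. Within the A36 to A39 mice 4 rose, namely Trib3, Asns, Ddit3, and Atf4 (all genes called, 2211 of 14278, with 1117 higher). On log2(TPM + 1) 3 were called lower with a median of -0.05 (all genes called, 5154 of 14364, with 83 higher). The largest values in all 23 mice were 1.61 for Trib3 (SE 0.63, adjusted p = 0.138), -0.58 for Vldlr, and 0.53 for Asns. Between KO T1D and WT T1D, 7 of the 12 were lower and 5 higher, and 0 passed by edgeR (all genes, 0.0905%). By DESeq2 Asns (-0.74) and Trib3 (-2.185) were lower (all genes, 239 of 14364). Within the A36 to A39 mice Asns, Trib3, Chac1, and Ddit3 were lower and Psat1 higher (all genes, 1540 of 14278). On log2(TPM + 1) Asns was lower and Psat1 higher (all genes, 1166 of 14364).

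Among mice of the same group, the 10 genes did not vary as 1 block. With group means removed, Pearson's r of log2(CPM + 0.5) over the 23 mice was positive in 19 of 45 pairs, had a median of -0.02, and ranged from -0.55 to 0.79. These and the following correlations are descriptions, and the mice share library preparation and a mixture of cell types. The strongest pairs were Gclm with Gclc at 0.79, Gsr with G6pdx at 0.77, Nqo1 with Gclc at 0.65, G6pdx with Osgin1 at 0.64, and Gsr with Osgin1 at 0.58. The lowest was Hmox1 with Slc7a11 at -0.55. The set thus divided into pairs that moved together, with Gclm and Gclc apart from Gsr, G6pdx, and Osgin1.

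**Figure D4:**
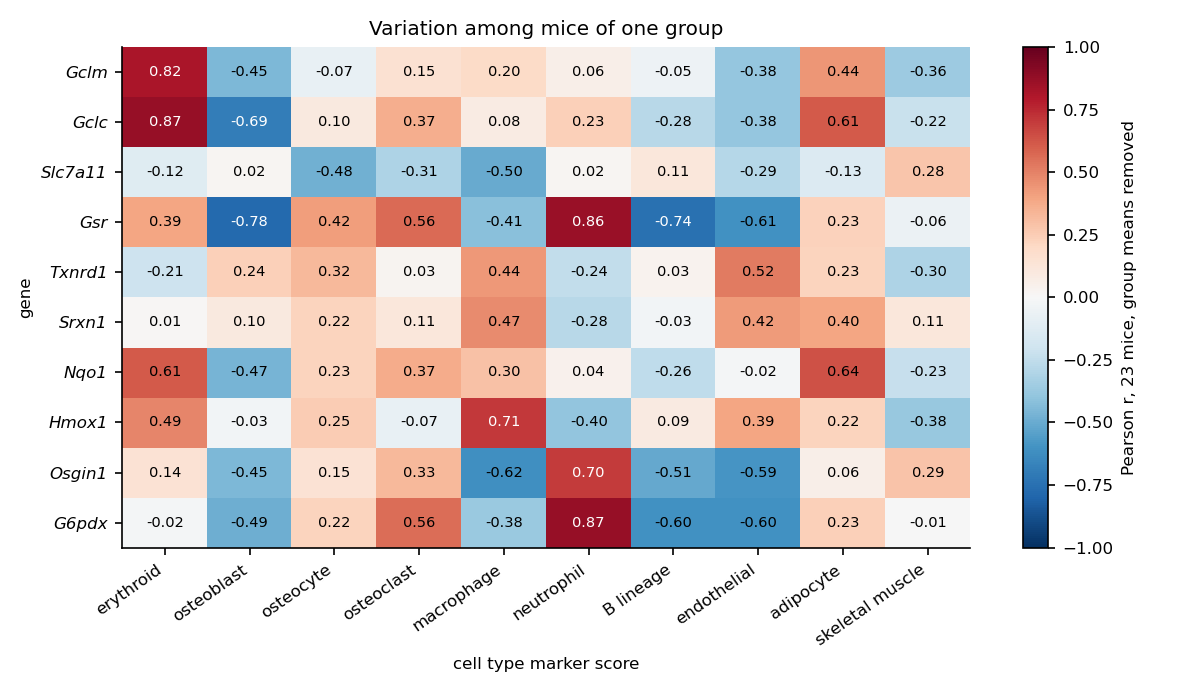
Pearson's r over 23 mice, with group means removed, between each gene (y axis) and the mean log2 level of each list of cell type markers (x axis), printed in each cell of the map. Gclc and Gclm are highest with erythroid markers (0.87 and 0.82), G6pdx and Gsr with neutrophil markers (0.87 and 0.86), and Hmox1 with macrophage markers (0.71).

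The same division appeared against markers of the cell types that remain in spun bone. Gclc and Gclm followed the erythroid markers, with r = 0.87 (Spearman's rho 0.81) and 0.82 (rho 0.77), and r was 0.78 and 0.73 without the 2 mice farthest from the median marker score. Within the A36 to A39 mice (19 mice) r was 0.86 and 0.84. Gsr and G6pdx followed the neutrophil markers, with r = 0.86 (rho 0.86) and 0.87 (rho 0.86), and 0.78 and 0.85 without the 2 farthest mice, which were A3905 and A3906. Osgin1 followed the same markers at 0.70 (rho 0.71). Hmox1 was closest to the macrophage markers at 0.71 (rho 0.65), and 0.59 without the 2 farthest mice. Txnrd1 and Srxn1 had no r above 0.52 with any of the 10 lists. Several of these genes also ran opposite to other lists. With osteoblast markers r was -0.78 for Gsr, -0.69 for Gclc, -0.49 for G6pdx, and -0.45 for Gclm. Without A3905 and A3906 these values were -0.64, -0.57, -0.29, and -0.42. Gsr was at -0.74 with B lineage markers, and Osgin1 at -0.62 with macrophage markers. The genes whose levels were most like each member over the 23 mice were Glrx5 (r = 0.90) and E2f1 (0.89) for Gclm, Ctse (0.95) and Nusap1 (0.93) for Gclc, Hp (0.94) and Glipr2 (0.92) for Gsr, and Siglece (0.93) and Zmpste24 (0.93) for G6pdx. For Hmox1 they were Prx (0.85) and Fcna (0.82), and for Osgin1 Eno1 (0.85) and Lpcat4 (0.84). The nearest genes of Nqo1, Srxn1, and Txnrd1 were less close. They were Vopp1 and Itgad for Nqo1 (0.81 and 0.80), Zfp354a and Cnksr3 for Srxn1 (0.78 and 0.73), and Bok and Afap1l2 for Txnrd1 (0.72 and 0.71).

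**Figure D5:**
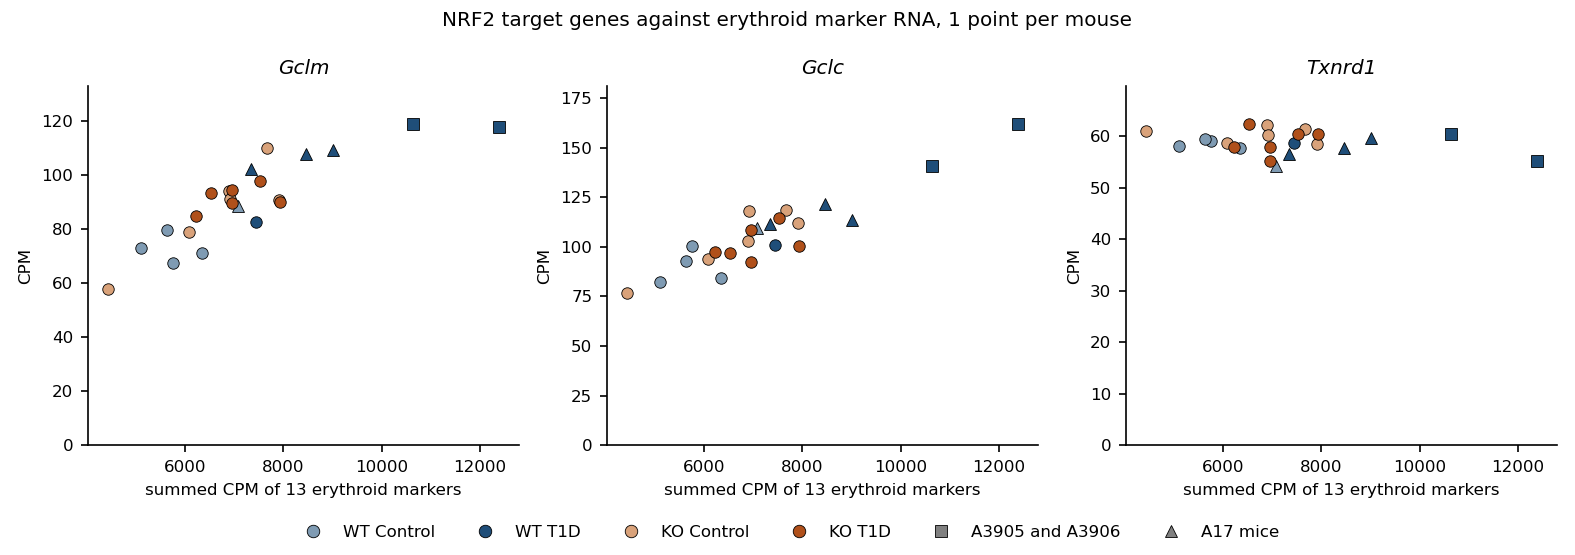
CPM of Gclm, Gclc, and Txnrd1 (y axes, from 0) against the summed CPM of 13 erythroid markers (x axes), 1 point per mouse, coloured by group, with squares for A3905 and A3906 and triangles for A17 mice. WT T1D mice lie at 7351 to 12400, to the right of all WT Control mice, while 2 KO Control and 2 KO T1D mice overlap the lowest of them. Gclm and Gclc are higher towards the right, and Txnrd1 lies between 54.2 and 62.2 CPM throughout.

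Erythroid markers also moved with the WT groups. Of 13 tested, 8 rose in WT T1D and 0 fell (all genes called in either direction, 2.33%), with a median log2 fold change of 0.51, beside 0.49 for Gclm and 0.41 for Gclc. Their summed CPM was 5106 to 7083 in WT Control and 7351 to 12400 in WT T1D, and it was 4423 to 7916 in KO Control and 6228 to 7940 in KO T1D, where 0 of 13 passed by edgeR or DESeq2 and 0 had an unadjusted p under 0.05. The share of all counts from hemoglobin genes was 9.73% to 13.87% in WT Control, 12.28% to 21.37% in WT T1D, 8.01% to 15.81% in KO Control, and 10.52% to 14.05% in KO T1D. The count of 8 was 11 by DESeq2, 12 within the A36 to A39 mice, 4 on log2(TPM + 1), 2 without the filter on low counts, and 0 without A3905 and A3906, where the median was 0.41. In the same order, all genes called were 1002 of 14364, 2211 of 14278, 5154 of 14364, 88 of 18002, and 0 of 14317. Between KO T1D and WT T1D all 13 erythroid markers were lower in KO, with a median of -0.32, beside -0.30 for Gclc and -0.21 for Gclm. Of them 0 passed the edgeR test, 3 passed DESeq2 (all genes, 239 of 14364), and 8 had an unadjusted p under 0.05 (all genes, 17.1%). In RNA from whole bone, more or fewer cells of a type and more or less RNA per cell cannot be told apart, and the part of erythroid cells in the values for Gclm and Gclc was not tested. Neutrophil markers had 0 of 10 past the test in WT T1D by edgeR and by DESeq2, with 2 at an unadjusted p under 0.05, and summed to 38720 and 42720 CPM in A3906 and A3905 against 25290 to 26510 in the other 4 WT T1D mice, beside the high Gsr and G6pdx values of the same mice. For macrophage markers, 0 of 13 passed between KO T1D and WT T1D by edgeR and 2 by DESeq2 (1 in each direction), with 7 at an unadjusted p under 0.05, and the median log2 difference was -0.04, beside -0.63 for Hmox1. Their summed CPM overlapped, at 1602 to 1873 in KO T1D and 1581 to 1830 in WT T1D. The part of these cell types in the values for Gsr, G6pdx, and Hmox1 was not tested. Of the other lists in WT T1D, 2 of 11 osteoblast markers fell (median -0.75) and 1 of 5 adipocyte markers, Fabp4, rose (1.36, adjusted p = 0.0418). All 5 adipocyte markers were higher in WT T1D (median 1.21, 4 at an unadjusted p under 0.05) and in KO T1D (median 0.73, 1 at an unadjusted p under 0.05). The adipocyte score had r = 0.64 with Nqo1 (rho 0.61) and 0.61 with Gclc (rho 0.60), or 0.55 and 0.46 without A3905 and A3906. Without these 2 mice, in a fit that passed 0 of all genes, Fabp4 was at 0.45 and 0 osteoblast or adipocyte markers passed. For osteoclast, osteocyte, B lineage, endothelial, and skeletal muscle markers, edgeR passed 0 genes, with 3 at an unadjusted p under 0.05 in all, and DESeq2 passed 1 osteocyte and 1 endothelial marker. Between KO T1D and WT T1D, where edgeR passed 0 markers of these lists and DESeq2 passed 2 (Fabp4 and Plin1, both lower in KO), all 5 adipocyte markers were lower in KO (median -1.45, 4 at an unadjusted p under 0.05), as were all 8 osteoclast markers (median -0.48, 2) and all 7 skeletal muscle markers (median -1.16, 2), and 10 of 11 osteoblast markers were higher (median 0.65, 6), beside the differences in Hmox1, Gclc, and Nqo1. Their part in those differences was not tested.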

How the data were processed

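Marrow-depleted bone of 23 mice was sequenced, 1 library per mouse, from oligo-dT-selected, strand-marked libraries on the DNBSEQ platform. The authors deposited expected counts per gene, made by filtering reads with SOAPnuke, aligning with HISAT and Bowtie2 to GRCm38.p6, and estimating with RSEM, rounded to whole numbers. The authors also deposited TPM values, with the same total in every mouse. Aligner versions are not given in the sources used here.

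Groups were taken from the sample labels. A gene was tested if 5 or more mice had a count of 10 or more, leaving 14364, and all 4 groups were fitted together with edgeR 4.0.16 (quasi-likelihood test, TMM) in R 4.3.3, with Benjamini-Hochberg adjustment over all genes and a threshold of 0.05. Intervals are 95%. Expression for correlations was log2(CPM + 0.5) with group means removed. Alternatives were DESeq2 1.42.0, RLE size factors, no filter, limma 3.58.1 on log2(TPM + 1) and log2(TPM + 0.1), the A36 to A39 mice, leaving out A3905 and A3906, only the groups compared, leaving out each mouse, and, chosen after seeing the data, runs of near-consecutive mouse identifiers as a block. In that block the A17 mice were set as 1 run, although their numbers were not all near-consecutive. The procedure was tested on simulated data. Depth was 16938101 to 20135592 counts per mouse.

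The genes named are the 10 NRF2 targets, the regulators of NRF2, from the other pathway lists those that passed or had the largest differences, and for each gene its nearest genes by correlation. The genes, lists and tests were chosen with earlier results of these data known.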

Additional observations from a re-analysis of the deposited data

Results flagged for a closer look

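Slc7a11 in WT Control had 1 mouse far from the others. Mouse A3903 was at 5.14 CPM, whereas the other 4 lay between 1.60 and 2.59 CPM, and the gap to its neighbour was 0.719 of the group's whole range. It was the 1 such case among 40 groups of values examined. The rule has a nominal rate of 1 in 20 groups by chance, which was not measured in these data.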

How the results depend on the processing

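In WT, the 1 gene past the threshold (Gclm) became 2 by DESeq2 (Gclm and Gclc), 3 within the A36 to A39 mice, and 0 without the filter on low counts, without A3905 and A3906, and with only the groups compared in the fit. Leaving out 1 mouse gave 0 to 2 in WT, 0 to 1 averaged over genotypes, and 0 to 1 between the T1D groups. Between the T1D groups the count of 0 became 1 by DESeq2, on both TPM scales, and within the A36 to A39 mice. In that comparison 13 of all 14364 genes were called by edgeR and 239 by DESeq2. On log2(TPM + 1) 1166 were called, on log2(TPM + 0.1) 1185, and within the A36 to A39 mice 1540 of 14278. Over all genes, WT T1D gave 334 calls (215 higher), 1002 by DESeq2, 88 without the filter, 2211 within the A36 to A39 mice, 5154 on log2(TPM + 1) (83 higher), 5173 on log2(TPM + 0.1), and 0 without A3905 and A3906 or with only the groups compared. The narrower promoter motif gave 0 genes.

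Signs turned on the TPM scales, given for log2(TPM + 1) and then log2(TPM + 0.1). In WT they were Nqo1 (-0.11, -0.12), Hmox1 (-0.0084, -0.0084), Srxn1 (-0.24, -0.26), Txnrd1 (-0.27, -0.28), Slc7a11 (-0.077, -0.25), Gsr (-0.16, -0.17), Osgin1 (-0.080, -0.085), and G6pdx (-0.13, -0.13). In the interaction they were Srxn1 (0.10, 0.11), Txnrd1 (0.20, 0.21), Gsr (0.17, 0.17), Osgin1 (0.090, 0.10), and G6pdx (0.18, 0.18). Averaged over genotypes they were Nqo1 (-0.12, -0.14), Slc7a11 (-0.030, -0.062), Gsr (-0.079, -0.080), Osgin1 (-0.035, -0.037), and G6pdx (-0.041, -0.041). Between the Control groups they were Gsr (-0.0019, -0.0020). Between the T1D groups they were Srxn1 (0.14, 0.16), Slc7a11 (0.030, 0.17), Gsr (0.17, 0.17), Osgin1 (0.046, 0.049), and G6pdx (0.14, 0.14). Within the A36 to A39 mice the values that turned were Slc7a11 in WT (-0.61), Slc7a11 averaged over genotypes (-0.27), Osgin1 between the Control groups (0.072), G6pdx between the Control groups (0.0014), and Slc7a11 between the T1D groups (0.53). Without A3905 and A3906 the values that turned were Gsr in WT (-0.082), Slc7a11 in the interaction (-0.18), Gsr in the interaction (0.13), G6pdx in the interaction (0.10), Nqo1 averaged over genotypes (-0.047), Gsr averaged over genotypes (-0.017), Gsr between the T1D groups (0.17), and G6pdx between the T1D groups (0.087). With identifier runs as a block, chosen after the data were seen, these were Slc7a11 in WT (-0.29), Gclm in KO (-0.0067), Hmox1 averaged over genotypes (0.015), and Slc7a11 averaged over genotypes (-0.12), and Slc3a2 and Chac2 in WT no longer passed (adjusted p = 0.0631 and 0.0567). Leaving out 1 mouse turned the sign of values near 0, with these ranges: Srxn1 in WT (-0.0017 to 0.072), Txnrd1 in WT (-0.013 to 0.033), Slc7a11 in WT (-0.29 to 0.43), Gclc in KO (-0.11 to 0.0081), Gclm in KO (-0.026 to 0.15), Slc7a11 in KO (-0.061 to 0.43), Slc7a11 in the interaction (-0.34 to 0.37), Gsr in the interaction (-0.17 to 0.0094), G6pdx in the interaction (-0.15 to 0.023), Nqo1 averaged over genotypes (-0.020 to 0.055), Hmox1 averaged over genotypes (-0.052 to 0.027), Slc7a11 averaged over genotypes (-0.11 to 0.25), Hmox1 between the Control groups (-0.13 to 0.039), Slc7a11 between the Control groups (-0.46 to 0.24), Gsr between the Control groups (-0.019 to 0.090), Osgin1 between the Control groups (-0.088 to 0.066), G6pdx between the Control groups (-0.070 to 0.070), Txnrd1 between the T1D groups (-0.0039 to 0.042), Slc7a11 between the T1D groups (-0.24 to 0.25), Gsr between the T1D groups (-0.13 to 0.054), and G6pdx between the T1D groups (-0.16 to 0.021). The TPM scale shifts the median gene, and the cause of the other changes was not tested. No paired analysis was possible because no mouse identifier or replicate number is shared between groups.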
